A study of Mus musculus with 2 samples.

Results

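Mos, Cpeb1, Zar1, Ybx2, Btg4, Dazl, Ddx4, H1foo, Patl2 and Bcl2l10 are genes of the germ line and the oocyte, most of whose products bind, store, translate or clear messenger RNA. They were taken as a fixed list of 10 genes, and every array probe whose RefSeq transcript belongs to one of them was kept. Each gene had 1 probe printed as 1 spot, so the list covers 10 of the 20658 genes for which a probe could be named. Tachykinins (TKs) are neuropeptides that act through the receptors TACR1, TACR2 and TACR3 (TKRs), and the arrays addressed which ovarian transcripts differ when these receptors are stimulated or blocked in growing follicles. Pieces of ovary from 2-week-old mice were cultured for 3 days either with TKR agonists or with TKR antagonists. The methods describe cutting ovaries lengthwise into symmetrical pieces, to limit errors that arise when different ovaries are used. Whether pieces of the same ovary went to both groups is not stated. The methods give as agonists [Sar9, Met(O2)11]-SP for TACR1, GR-64349 for TACR2 and a succinylated substance P fragment for TACR3, and as antagonists a compound of the L series for TACR1, GR-94800 for TACR2 and SB218795 for TACR3, each at 1 μM. RNA of each group was labelled with Cy3 and hybridised to 1 single-colour array. There was no array of untreated ovary, and the strain and the number of ovaries behind each RNA are not given in the sources used here.

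A growing oocyte transcribes a large store of maternal mRNA, keeps much of it silent with short poly(A) tails, and translates or destroys it later by changing those tails, because transcription stops before meiosis resumes. CPEB1, ZAR1, YBX2 and PATL2 bind such mRNAs or the complexes that silence them, DAZL and DDX4 act on germ cell mRNAs from early stages on, and BTG4 brings the deadenylase to maternal mRNAs at meiotic maturation. MOS is a kinase made from a stored mRNA at maturation, H1FOO is the linker histone of the oocyte, and BCL2L10 is a member of the BCL2 family that is abundant in oocytes. The array gives a signal for RNA and not the length of its tail or its translation. Whether tail length affected the labelling, and so the signal, was not tested.

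The array of the agonists had 65.4% and that of the antagonists 61.6% of 59305 spots well above background by the mark of the image analysis software, and 0 spots were saturated. A probe or gene with that mark is called detected here. Signals are given as the software's background-corrected intensity, and the log2 ratio is the agonist minus the antagonist value after each array was divided by the 75th percentile of its spots (672 and 569 signal units). This division lowered every log2 ratio by 0.24, and the 33073 probes detected on both arrays (59.4% of 55674) had a median of -0.10 with it and 0.14 without it, so a scaled value is to be read against -0.10 and not against 0, and a small negative one can lie above the median of all probes. With 1 array per group the spread between ovaries is unknown, no test was possible and no p-value is given, and differences are read only against errors of the measurement on the arrays.

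The stretches of sequence before 5 of the members are shown first because they span the contrasts in this small set, from H1foo, which had the brightest probe, to Dazl, which had the dimmest, and from the fewest to many CG pairs. Each runs 5′ to 3′ along the strand of the gene and ends at the base before the annotated start, in RefSeq's mouse assembly GRCm38.p6. Capitals mark every CANNTG, the E-box, which is the letter pattern read by basic helix-loop-helix factors such as the oocyte regulators FIGLA and SOHLH1. The array itself carries no information on binding there. The H1foo stretch is chr6:115944681-115944930 on the plus strand, that of Zar1 chr5:72581085-72581334 on the minus strand, that of Btg4 chr9:51115751-51116000 on the plus strand, that of Dazl chr17:50293621-50293870 on the minus strand and that of Ddx4 chr13:112652311-112652560 on the minus strand.
H1foo: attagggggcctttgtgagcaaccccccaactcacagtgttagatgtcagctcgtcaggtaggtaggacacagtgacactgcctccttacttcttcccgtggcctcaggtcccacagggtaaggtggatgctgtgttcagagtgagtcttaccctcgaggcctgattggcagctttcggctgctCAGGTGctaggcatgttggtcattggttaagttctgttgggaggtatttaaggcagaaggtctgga
Zar1: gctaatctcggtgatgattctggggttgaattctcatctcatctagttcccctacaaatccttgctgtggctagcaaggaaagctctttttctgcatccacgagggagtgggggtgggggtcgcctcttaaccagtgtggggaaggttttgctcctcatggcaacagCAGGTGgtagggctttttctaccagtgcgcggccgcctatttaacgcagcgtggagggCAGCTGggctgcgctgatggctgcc
Btg4: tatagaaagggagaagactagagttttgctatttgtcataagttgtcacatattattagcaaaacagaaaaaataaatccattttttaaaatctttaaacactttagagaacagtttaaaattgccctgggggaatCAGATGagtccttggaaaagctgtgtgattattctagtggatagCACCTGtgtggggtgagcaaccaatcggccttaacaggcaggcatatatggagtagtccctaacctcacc
Dazl: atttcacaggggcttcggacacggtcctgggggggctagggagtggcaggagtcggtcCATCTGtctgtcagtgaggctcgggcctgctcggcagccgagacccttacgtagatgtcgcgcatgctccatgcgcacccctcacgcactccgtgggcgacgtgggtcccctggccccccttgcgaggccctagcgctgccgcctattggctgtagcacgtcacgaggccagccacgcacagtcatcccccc
Ddx4: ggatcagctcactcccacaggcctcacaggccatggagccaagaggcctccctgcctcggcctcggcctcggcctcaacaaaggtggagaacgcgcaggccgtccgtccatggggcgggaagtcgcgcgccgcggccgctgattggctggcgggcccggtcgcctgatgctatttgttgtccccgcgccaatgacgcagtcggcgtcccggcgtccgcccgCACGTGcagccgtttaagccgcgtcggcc

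RefSeq's promoter table held 9 entries for 8 of the members, Ybx2 having a second one, and no entry for Mos and Bcl2l10. The E-box occurred in 8 of the 9 entries and in 8 of 8 genes, against 66.2% of 32851 promoters of all genes with the same 250 bases. The 6 letters CAGGTG, or their complement CACCTG, were found in 6 of 8 genes (Cpeb1, Zar1, Ybx2, Btg4, H1foo and Patl2) against 17.2% of all promoters, a form that was singled out after the matches had been seen. Its first base lay 66 bases before the start in H1foo, 83 in Zar1 and 70 in Btg4, and 63, 94 and 237 bases before it in Cpeb1, Patl2 and Ybx2. Dazl had only CATCTG, 192 bases before its start, and Ddx4 only CACGTG, 29 bases before it, as the capitals show. TAATTG and TAATTA, letters read by the oocyte homeobox factor NOBOX, occurred in 0 of the 9 entries, against 7.17% and 4.84% of all promoters on either strand. TATAAA was present in 1 entry (Cpeb1, 12.4% of all promoters) and GGGCGG, the GC box, in 4 (32.7%). The number of CG pairs went from 1 in Btg4 and 4 in H1foo over 9 in Zar1 and in Patl2 to 20 in Dazl, 25 in Cpeb1, 31 in Ddx4 and 29 and 35 in Ybx2, where the median promoter had 6. Btg4 and H1foo thus lay below the median promoter and the other members with an entry above it.

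All 10 genes were detected on both arrays, against 73.9% of genes with a probe. Levels of different probes cannot be set against each other as amounts of RNA, so each gene is placed by its rank among the 55674 probes of its own array. Zar1 (zygote arrest 1, chromosome 5) encodes a maternal RNA-binding protein that holds mRNAs in a store in the oocyte. Its signal was 27244 with agonists and 24261 with antagonists, rank 1437 and 1480. Cpeb1 (chromosome 7), the protein that recognises the cytoplasmic polyadenylation element and switches a bound mRNA from silence to translation, had a signal of 2871 with agonists and 2276 with antagonists, rank 6593 and 7108. Both lay among the brighter probes, at or above the 97th percentile for Zar1 and near the 88th for Cpeb1.

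Ybx2 (chromosome 11), also called MSY2, is the germ cell Y-box protein that packages and stabilises maternal mRNA. Its signal was 1036 with agonists and 912 with antagonists, rank 11145 and 11104. Patl2 (chromosome 2) is the oocyte form of the decay and repression factor PATL1, and its signal was 798 with agonists and 664 with antagonists, rank 12443 and 12614. Btg4 (chromosome 9), the adaptor through which the CCR4-NOT deadenylase is brought to maternal mRNAs, had a signal of 2774 with agonists and 2226 with antagonists, rank 6734 and 7209. Btg4 and Cpeb1 lay next to each other in the order of brightness on both arrays.

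Dazl (chromosome 17), an RNA-binding protein that promotes translation in germ cells, was the dimmest member, with a signal of 512 with agonists and 423 with antagonists, rank 14654 and 14835. Its spot medians before correction were 567 over a local background of 38 with agonists and 481.5 over 40 with antagonists, so the dimmest member was still far from the background. Ddx4 (chromosome 13), the mouse vasa homolog and an RNA helicase of germ granules, had a signal of 715 with agonists and 611 with antagonists, rank 12996 and 13019. The classic germ line markers thus lay among the dimmer probes of the set.

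Mos (chromosome 4), which starts the MAP kinase cascade that holds the mature egg at metaphase II, had a signal of 668 with agonists and 595 with antagonists, rank 13322 and 13142. Mos and Ybx2 were the only members that ranked higher on the antagonist array. H1foo (chromosome 6; H1f8 in current naming) had the brightest member probe, with a signal of 58075 with agonists and 49223 with antagonists, rank 835 and 889. Bcl2l10 (chromosome 9), also known as Diva or Boo, had a signal of 5898 with agonists and 4976 with antagonists, rank 4087 and 4319. The order of the 10 genes by signal was identical on the arrays, and 9 of 10, all except Dazl, were at or above the 75th percentile of probes on each when spots of a probe were averaged.

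**Figure D1:**
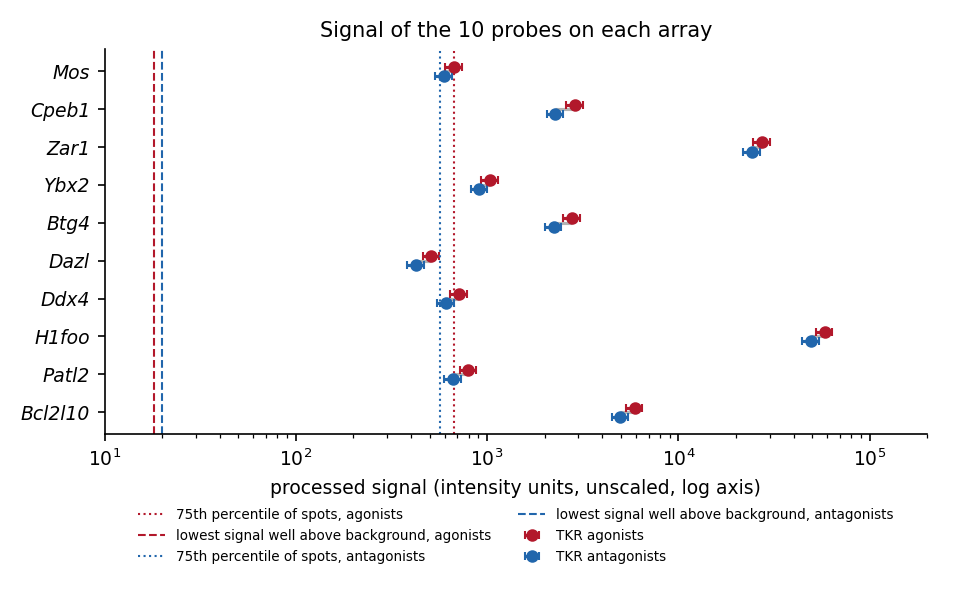
Unscaled background-corrected signal of the 10 member probes (log axis, intensity units) on the array of the TKR agonists (red) and that of the TKR antagonists (blue), 1 spot per point with the error estimate of the software, dotted lines marking the 75th percentile of spots on each array (672 and 569) and dashed lines the lowest signal well above background (18.1 and 19.9). The agonist point lies to the right of the antagonist point for every gene by a small step, and the order of the genes is the same on both arrays.

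The germ cell RNA regulators and maternal factors differed little between agonists and antagonists. Before scaling, the agonist signal was higher for 10 of 10 genes, by 12.2% (Mos) to 26.1% (Cpeb1) with a median of 18.3%, but 71.6% of all probes were also higher before scaling. After scaling the median log2 ratio of the 10 genes was 0.0003 with an SD of 0.06 over genes, 5 lying above 0 and 5 below, and every one lay above the median of all probes by 0.02 to 0.19. None of the 10 was 2-fold apart, where 3.4% of all probes were, 2.69% being higher and 0.705% lower with agonists. None was 1.5-fold apart either, where 11.8% of all probes were, so that a count of 0 in 10 is near that share.

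Cpeb1 had the highest log2 ratio of the set, 0.09, followed by Btg4 with 0.08. Before scaling these were 0.33 and 0.32, and Btg4 was 24.6% brighter with agonists. The cytoplasmic polyadenylation factor and the deadenylase adaptor, which act on tails in opposite directions, thus had nearly the same ratio. Dazl, Patl2, Bcl2l10 and H1foo followed with scaled log2 ratios of 0.03, 0.02, 0.004 and -0.003, the agonist signals being higher by 20.9%, 20.3%, 18.5% and 18.0% before scaling. Ddx4 had -0.02 (16.9% higher before scaling) and Ybx2 -0.06 (13.6% higher). Zar1 and Mos were lowest, each with -0.07, and were 12.3% and 12.2% higher before scaling.

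The software gave each of these log2 ratios an error of 0.20, nearly the same (0.2040 to 0.2048) over a 113-fold range of agonist signal. All 10 of 10 lay within it of 0 and, at 0.02 to 0.19 above it, of the median of all probes. The share of all probes within 0.20 of 0 was not counted, so this does not set the members apart. The whole set spanned 0.17 from lowest to highest, and 19.4% of all probes lay between its ends. The ends were set by the members themselves, so this share does not set them apart. The SD of 0.06 over the 10 genes can be set beside the SD between repeated spots of a single probe: 399 probes were printed 10 times, and for the 184 of them within the members' range of signal the median SD of the log2 ratio between spots was 0.06. Neighbours in the order of the members differed by at most 0.043 (0.063 with normexp background correction), and the ends, Mos and Cpeb1, by 0.17. Sorting by value places neighbours close and ends apart, so neither difference can be read against that SD. By percentile among all 33073 probes the members ran from 53.3 (Mos) to 72.7 (Cpeb1). All 10 lay within 0.1 of 0, as did 23.6% of all probes. That window only just holds the highest member (0.09) and is not centred on the median of all probes, so it does not set the members apart either. The 14667 probes at least as bright as Dazl on both arrays had an SD of 0.33.

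**Figure D2:**
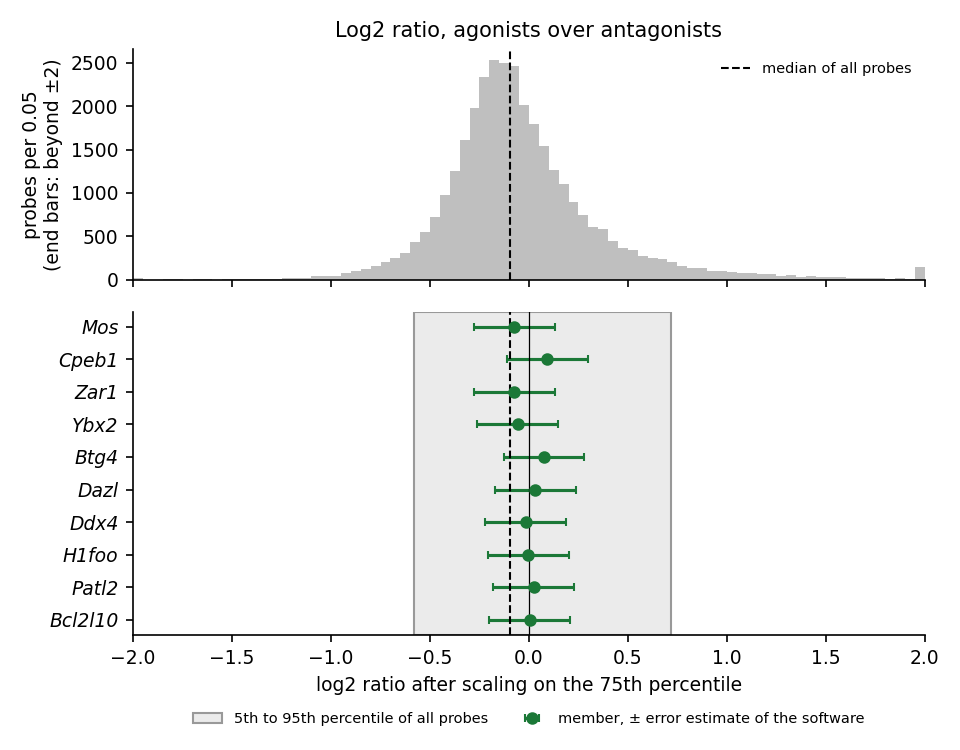
Top, number of probes per bin of 0.05 of the scaled log2 ratio over the 33073 probes detected on both arrays, values beyond ±2 being in the end bars. Bottom, the log2 ratio of each member with the error estimate of the software (± 0.20), the grey box spanning the 5th to 95th percentile of all probes (-0.58 to 0.72) and the dashed line their median (-0.10); the members form a narrow column between -0.07 and 0.09.

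**Figure D3:**
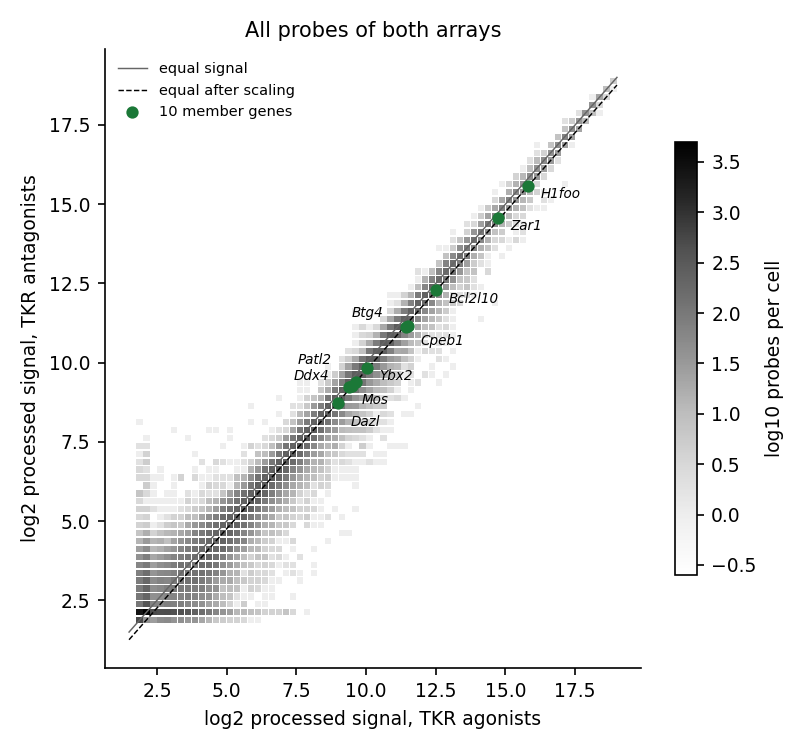
Unscaled log2 signal of all probes, agonists (horizontal) against antagonists (vertical), the grey shade giving the number of probes per cell on a log10 scale, with the 10 members in green, a solid line of equal signal and a dashed line of equal signal after scaling. The members lie close to the dashed line over a 113-fold range of agonist signal, from Dazl to H1foo.

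Other genes of translational control spread more widely, with an SD of 0.17 over genes against 0.06 for the members. Of 22 genes, all with a probe, 21 were detected on both arrays, with a median log2 ratio of -0.06 and a range from -0.36 to 0.20, 12 of 21 above the median of all probes and 0 of 21 2-fold apart (4.01% of genes were 2-fold higher and 0.577% 2-fold lower). Zar1l, the close relative of Zar1, had 0.18 and Igf2bp3, an mRNA-binding protein, 0.20, the highest values of the list. Its lowest values were those of Patl1 (-0.36), the widely expressed relative of Patl2, and Tent2 (-0.32), the cytoplasmic poly(A) polymerase also called GLD2. Patl1 thus lay 0.39 below Patl2, with signals of 454 with agonists and 494 with antagonists.

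Relatives and partners of CPEB1 had log2 ratios on both sides of that of Cpeb1 (0.09). Cpeb3 had 0.17 and Cpeb2, which was dim (52.3 and 50.5), -0.19. Cpeb4 was well above background with agonists only, where its scaled signal was at least 1.67-fold higher, the lowest signal well above background on the antagonist array standing for its dim value there, but its log2 ratio was only 0.09 with normexp background correction. The translational repressors Eif4enif1 (4E-T) and Eif4e1b, the oocyte form of the cap-binding protein, had -0.05 and 0.08 (0.15 by the other probe of Eif4e1b). Ybx1 and Ybx3, the Y-box relatives of Ybx2, had -0.18 (-0.05 by its other probe) and -0.06, beside -0.06 for Ybx2. Apart from the bound for Cpeb4, these values lay within 0.20 of 0, the error for a single spot. Against the median of all probes, Cpeb3 (0.27 above it) and the other probe of Eif4e1b lay beyond that error.

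Among 24 genes of deadenylation and decay, all detected on both arrays, log2 ratios had a median of -0.09 and a range from -0.42 to 0.47, 12 of 24 above the median of all probes and 0 of 24 2-fold apart. The deadenylase subunits that BTG4 works with, Cnot7 and Cnot6l, had 0.20 and 0.04 beside 0.08 for Btg4. Its relatives Btg2 and Btg3 had 0.19 and -0.01, and the probes of Btg1 disagreed, with 0.12 and -0.40. Pabpn1l, the oocyte poly(A)-binding protein that joins BTG4 in maternal mRNA clearance, had -0.18. Zfp36l1 (0.47) and Zfp36l2 (0.29), which bind AU-rich elements and promote decay, were highest, and the antiproliferative adaptor Tob1 (-0.42) and the CCR4-NOT subunit Cnot10 (-0.34) lowest.

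The germ granule and piRNA genes, to which Ddx4 is tied, were more spread. Of 27 genes 26 had a probe and 22 were detected on both arrays, with a median of -0.07 and a range from -0.57 to 0.58, 14 of 22 above the median of all probes and 0 of 22 2-fold apart. Tdrkh (0.58) and Stk31 (0.52), both germ line proteins with a Tudor domain, were highest, and Ddx25 (-0.57), another germ line RNA helicase, and the translational repressor Nanos1 (-0.43, or -0.13 by its other probe) lowest. Piwil2, Tdrd7 and Mael, which share granules with DDX4, had 0.19, -0.09 and -0.12. Nanos3, which protects germ cells, had 0.06, and Boll, the relative of Dazl, was not well above background on either array. Mov10l1 was well above background with agonists only and is thus outside the count of genes 2-fold apart. Its scaled signal was at least 2.01-fold higher with agonists, a log2 ratio of 1.01 with a software error of 0.38. Under the setting that gave its lowest value, the log2 ratio of Mov10l1 was only 0.08. Ddx4 itself, at -0.02, lay in the middle of these values.

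The genes that act with MOS, and the meiotic cell cycle genes listed with them, lay lower than Mos in the middle of their range, though 5 of 20 lay above it. All 20 were detected on both arrays, with a median of -0.41, 5 of 20 above the median of all probes and 0 of 20 2-fold apart, whereas Mos had -0.07. Map2k1, a kinase that MOS activates, had -0.53 (signals of 3801 and 4654). Mapk3, an ERK kinase further down, had 0.31 (8435 and 5758), so these steps of the cascade lay on either side of the median of all probes. Rps6ka1 (0.79), a ribosomal S6 kinase downstream of ERK, was the highest of the list and Mapk3 the second. Rps6ka2 (-0.71, signals of 20.4 and 28.2, close to the background) and the phosphatase Cdc25c (-0.70) were lowest, and Fbxo43, the meiotic inhibitor of the anaphase-promoting complex, had -0.38 at signals of 35.7 and 39.4. Under the settings that can change a difference between genes (quantile, loess, normexp or the mean over probes) Mos stayed above Map2k1 by 0.37 to 0.46, and Mapk3 above Mos by 0.41 to 0.48. Many genes of this list also serve mitosis in dividing somatic cells, which the arrays do not separate from oocytes.

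H1foo contrasted with the other linker histones. Of 10 other genes 9 had a probe and 7 were detected on both arrays, with a median log2 ratio of -0.75, 1 of 7 above the median of all probes and 1 of 7 at least 2-fold lower with agonists. That gene was H1f5, with a log2 ratio of -1.01 and signals of 4135 with agonists and 7026 with antagonists. H1f10 had -0.96 and H1f0, the histone of non-dividing cells, -0.88, with signals of 258 and 401. H1f1, H1f4 and H1f2 had -0.75, -0.56 and -0.47. These 6 genes were lower with agonists even before scaling, where H1foo was 18.0% higher. H1f6, a testis form that was dim here (37.3 and 31.4), had 0.01, H1f7 was well above background with agonists only (at least 1.11-fold, but a log2 ratio of -0.12 with normexp), and H1f3 on neither array. H1foo exceeded each of the 6, H1f2 least and H1f5 most, and under those same settings its lead was 0.46 to 0.50 over the nearest and 0.98 to 1.07 over the farthest of them. The arrays do not separate oocytes from somatic cells, so these values do not compare linker histones within the oocyte. Whether these differences exceed the spread between ovaries cannot be told with 1 array per group.

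**Figure D4:**
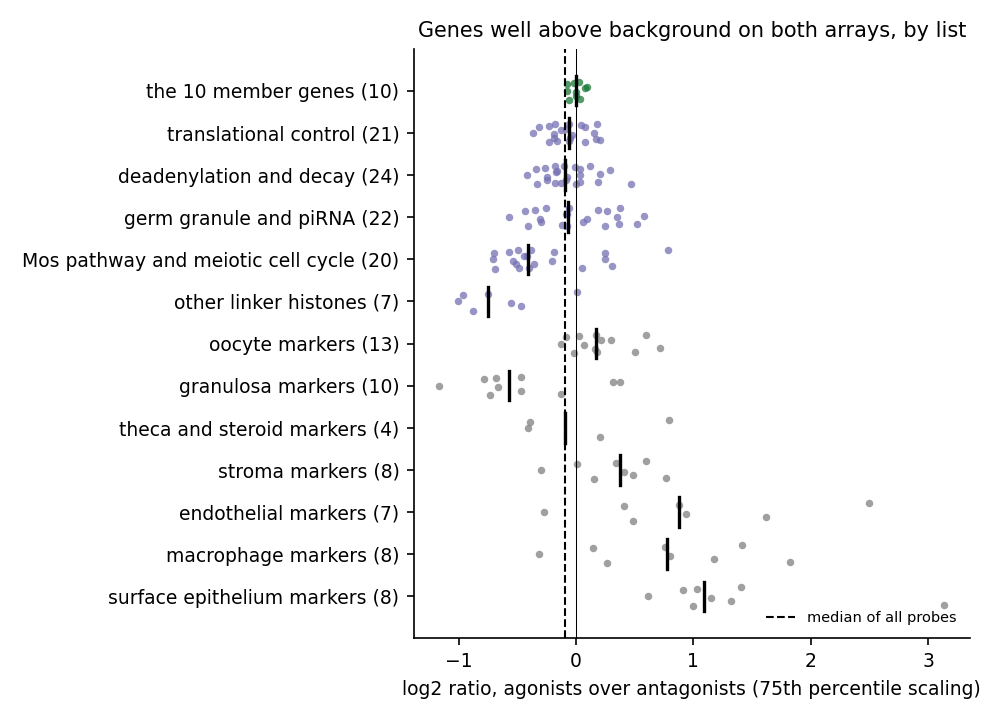
Scaled log2 ratio of each gene detected on both arrays (points), for the members, 5 related lists and the marker lists, with the median of each list (bar) and the median of all probes (dashed line). The members are the narrowest group (SD 0.06 over genes, against 0.17 to 0.40 in the 5 related lists), and the other linker histones (median -0.75) and the Mos pathway and meiotic cell cycle genes (median -0.41) lie lowest among the related lists.

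In RNA of whole ovary, fewer cells of a type and less RNA per cell cannot be told apart, so the markers of ovarian cell types are given beside these values. All 13 oocyte markers were detected on both arrays, with a median log2 ratio of 0.17 and summed signals of 221418 with agonists and 188419 with antagonists, and the 10 members summed to 100591 and 86168. Zp3 (-0.13) and Gdf9 (-0.08), a zona pellucida protein and an oocyte growth factor, lay lowest, and Zp1 (-0.02), Padi6 (0.03) and Oosp1 (0.07) lay within the members' range. The remaining 8 lay above the highest member, with Zp2 at 0.16, Nlrp5 at 0.17, Nobox at 0.18, Bmp15 at 0.21 and Ooep at 0.29. Sohlh1 (0.51), Figla (0.59) and the receptor gene Kit (0.71) were the highest. Granulosa markers, 10 of 10 detected, had a median of -0.57 (summed signals of 120988 and 126380). Of these, 2 lay above the median of all probes, Amhr2 (0.38) and Foxl2 (0.32, or -0.37 by its other probe). Markers of stroma (8 of 8, median 0.38, 279224 and 197647), endothelium (7 of 8, 0.88, 41651 and 31056), macrophages (8 of 10, 0.78, 15492 and 12332) and surface epithelium (8 of 8, 1.09, 26213 and 10059) were higher by their medians. Among those detected on both arrays, 7, 6, 7 and 8 of them lay above the median of all probes. The exceptions were Lum (-0.30), Kdr (-0.27, or 0.38 by its other probe) and Itgam (-0.31, with another probe at 0.64). Of 6 markers of theca and steroid synthesis 4 were detected on both (median -0.10, 57236 and 47831), Lhcgr on neither array and Insl3 had no named probe. The somatic marker RNAs thus differed between the arrays in both directions. Their part in the members' log2 ratios was not tested.

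**Figure D5:**
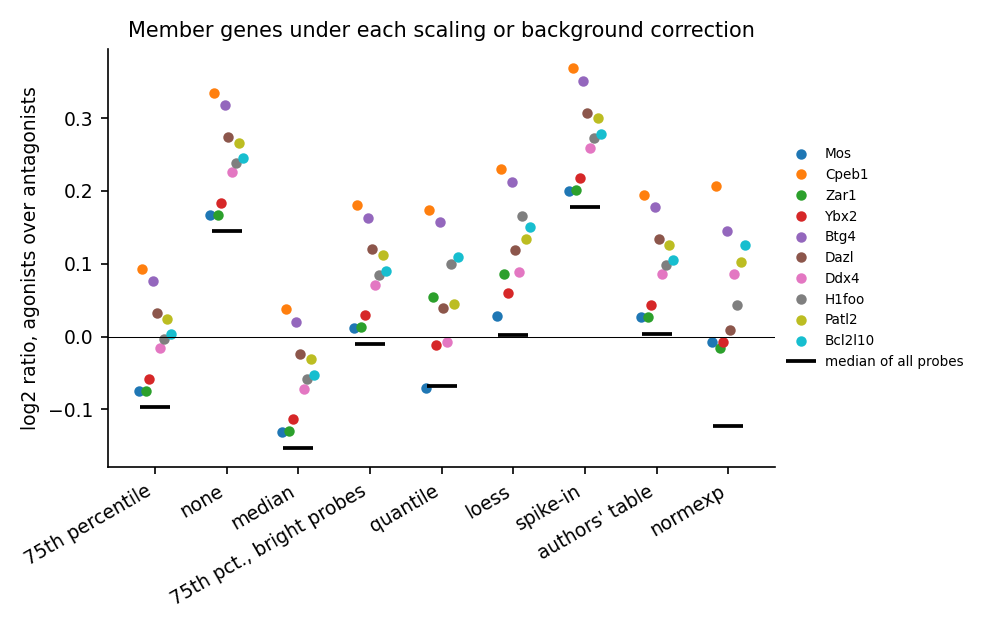
Log2 ratio of each member (points, one colour per gene) under 9 ways of scaling or correcting the arrays, with the median of all probes detected on both arrays (bars). The points shift together with the bars, from a member median of -0.06 with scaling on the median to 0.28 with scaling on the spike-in controls, while their spread changes little.

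How far the members lay from 0 depended on the scaling, and how far they lay from each other and from the median of all probes changed less. The member median was 0.24 without scaling and 0.28 on the spike-in control probes, and 2, 5, 7 or 10 of the 10 genes were above 0 depending on the setting. In every setting run, the member median lay above the median of all probes, by 0.08 to 0.19, and the SD over the 10 genes stayed between 0.06 and 0.08, neither of which a constant scaling can change. Mos, by -0.003 with quantile normalization, was the only member to fall below the median of all probes under any setting. Cpeb1 was the highest of the 10 throughout the settings in the plot of scalings.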

How the data were processed

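Cultured pieces of mouse ovary were profiled in 2 samples, 1 per group, grouped from the sample labels. RNA was labelled with Cy3 from 100 ng and read on an Agilent SurePrint G3 Mouse array. The authors deposited spot intensities of Agilent Feature Extraction on a linear scale, background-corrected and not scaled between arrays, and a summary table that equals those intensities times a constant per array (1.99 for agonists and 2.19 for antagonists). Both arrays were on the same slide and scan.

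Here control and outlier spots were left out, log2 intensity was reduced by the array's 75th percentile and spots of a probe were averaged, although the deposited intensities themselves carry no log2 step. A probe counted as well above background when over 50% of its spots were. A gene was represented by its probe of highest mean signal. Symbols came from RefSeq transcripts listed for GRCm38, used for names only, and 27230 probes were named. Lower bounds of a fold are on the scaled values, and the dim side was the higher of its own signal and the lowest signal well above background (19.9 with antagonists). An undetected signal can exceed the latter, as that of Mov10l1 did, so these bounds are not strict. With 1 array per group no test was made, and the number of arrays limits the precision. Members and lists were chosen with earlier results of these data known. Named genes were all members, the 2 highest and 2 lowest of each related list, and genes acting directly with a member, some of which are not reported here. Alternatives were other scalings, loess (span 0.3), the authors' table, normexp (offset 50), other summaries and filters and a 1.5-fold threshold. The calculation was tested on simulated data. Python 3.11.15, numpy 2.4.6, pandas 2.3.3, statsmodels 0.14.6, matplotlib 3.10.9, R 4.3.3 and limma 3.58.1 were used.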

Additional observations from a re-analysis of the deposited data

How the results depend on the processing

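Of 99 values for the counts and list medians under alternative settings, 89 stayed close to those reported and 10 moved, all list medians and all upward. The median log2 ratio of the members (0.0003) was 0.24 without scaling, 0.087 with the 75th percentile taken over probes well above background on both arrays, 0.13 with loess, 0.28 on the spike-in probes, 0.10 with the authors' table and 0.064 with normexp. That of translational control (-0.06) was 0.18 without scaling and 0.21 on the spike-in probes, and that of deadenylation and decay (-0.09) was 0.15 and 0.18. Of 130 values of single members, 20 moved by more than the software's error, 10 without scaling and 10 on the spike-in probes. Both settings shift all 10 genes by a constant, so this count follows from the scaling and not from single genes. In every setting run, 0 members were 2-fold apart. Among all probes, 890 were at least 2-fold higher and 233 lower (79.3% of them higher); this was 1499 and 98 (93.9%) without scaling, 1622 and 88 (94.9%) on the spike-in probes, 1099 and 149 with the authors' table, 410 and 60 with normexp, 3339 and 2333 (58.9%) when dim probes were kept, 2058 and 1262 (62.0%) with signals positive and significant over background, and 2299 and 1620 (58.7%) at 1.5-fold. Each member has 1 probe and 1 spot, detected on both arrays, so other summaries of spots and probes and other filters on dim probes could not change it. Many of the values that stayed the same were thus fixed in advance. No paired analysis was possible because each group has 1 array.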

Other observations

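Within the germ granule and piRNA list, a group of dim genes had higher log2 ratios than the members, a difference that was lost with another background correction. Piwil2, Tdrd1, Tdrd9, Tdrkh, Asz1, Stk31 and Rnf17, which serve piRNA production and the silencing of transposons in germ cells, had signals between 34.1 and 138 and log2 ratios from 0.19 to 0.58 with a median of 0.37, each above the highest member (0.09). They were picked after their values were seen. The 7505 probes well above background with both signals in the same range had a median of -0.07, with a 5th percentile of -0.60 and a 95th of 0.59. With normexp, which reduces the differences of dim probes, the 7 genes ranged from -0.07 to 0.29 with a median of 0.02, against -0.16 for those probes, and overlapped the members, which then ranged from -0.02 to 0.21 with a median of 0.064.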
